A study of Mus musculus with 8 samples.

Results

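Fam83h, 5 of its paralogs (Fam83a, Fam83b, Fam83d, Fam83f and Fam83g) and the casein kinase gene Csnk1a1 were followed in enamel organs of mouse first molars between the secretory and the maturation stage. These 7 genes were found by their names among the 54532 genes of the deposited table of read counts, and all 7 had enough counts to be tested. The table holds 8 genes of the FAM83 family, so that Fam83c and Fam83e are described beside them. The groups were wild type (wt) C57BL/6 pups at postnatal day 5 (P5) and day 12 (P12), without treatment, and 4 polyA RNA-seq libraries were made at each age. Each library was a pool of the molars of 5 pups. The study's methods speak of pooled enamel organs, and per the labels the molars left after removal of inner tissue were homogenized, without a step that purified ameloblasts.

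FAM83 proteins share a conserved domain near the amino terminus through which they bind casein kinase 1 (CK1), a family of serine and threonine kinases, and carry it to particular places in the cell. FAM83H brings the alpha isoform of CK1, the product of Csnk1a1, to keratin filaments. In humans, truncating mutations of FAM83H cause a dominant form of amelogenesis imperfecta, an inherited enamel defect, in which the enamel is poorly calcified. FAM83D brings the same kinase to the mitotic spindle, FAM83G and FAM83F act in Wnt signalling, and FAM83A and FAM83B act downstream of the EGF receptor.

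The total count was 16574548 to 20262601 for the P5 and 17588152 to 22013456 for the P12 libraries, and a floor of 3 counts lay between 0.136 and 0.181 CPM, that is, counts scaled to the library total. Of the labelled epithelial tissue, the markers Krt5, Krt14, Epcam and Cdh1 were present in every library, with a summed normalized count of 90040 to 95878 at P5 and 259768 to 324806 at P12. Krt5 and Krt14 made up most of this sum, while Cdh1 was lower at P12, at -0.31 on the log2 scale (edgeR, adjusted p = 0.00223). Normalized counts are counts scaled to the mean effective library size (edgeR, TMM). P5 library 5 and P12 library 4 stood apart from the other libraries of their age. The chi-square per degree of freedom between P5 library 5 and the other P5 libraries was 17.1 to 18.5, against 4.76 to 5.89 among those others, and it was 31.6 to 74.6 for P12 library 4, against 8.58 to 18.9. Results are therefore also given without both libraries, an alternative chosen after seeing the data.

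Between P5 and P12, 6 of the 7 genes changed at an adjusted p-value under 0.05 (edgeR quasi-likelihood test), where 57.2% of all 16440 genes tested did. Fam83h, Fam83a, Fam83b and Fam83f were higher at P12, where 28.8% of all genes were higher, and Fam83d and Fam83g were lower, where 28.4% of all genes were lower. Csnk1a1 was not called in either direction. Fam83a passed the filter on low counts through its P12 libraries alone, so that its call is not read as support, and of the other 6 genes 5 were called. With both of the libraries that stood apart left out, the counts were again 4 higher and 2 lower, where 4921 of 16667 genes were higher and 4855 lower. The normalized counts of P5 and P12 did not overlap for 5 of the 7 genes, Fam83h, Fam83a, Fam83b, Fam83d and Fam83g, where 52.5% of all genes did not overlap. Of these 5 genes 3 were higher at P12 (26.0% of all genes) and 2 lower (26.6%). A called change of at least 1 log2 unit was found for 3 genes that rose, Fam83h, Fam83a and Fam83b (11.3% of all genes), and for 1 gene that fell, Fam83d (10.2%). For the 5 genes without overlap the two-sided exact permutation test gave p = 0.0286, the smallest that 4 libraries against 4 allow. Any gene without overlap gets this p, so that it repeats the lack of overlap and adds no support. For Csnk1a1 the same exact permutation test gave p = 0.0857, and for Fam83f 0.114. In bulk tissue, fewer cells of a type and less RNA per cell cannot be told apart.

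**Figure D1:**
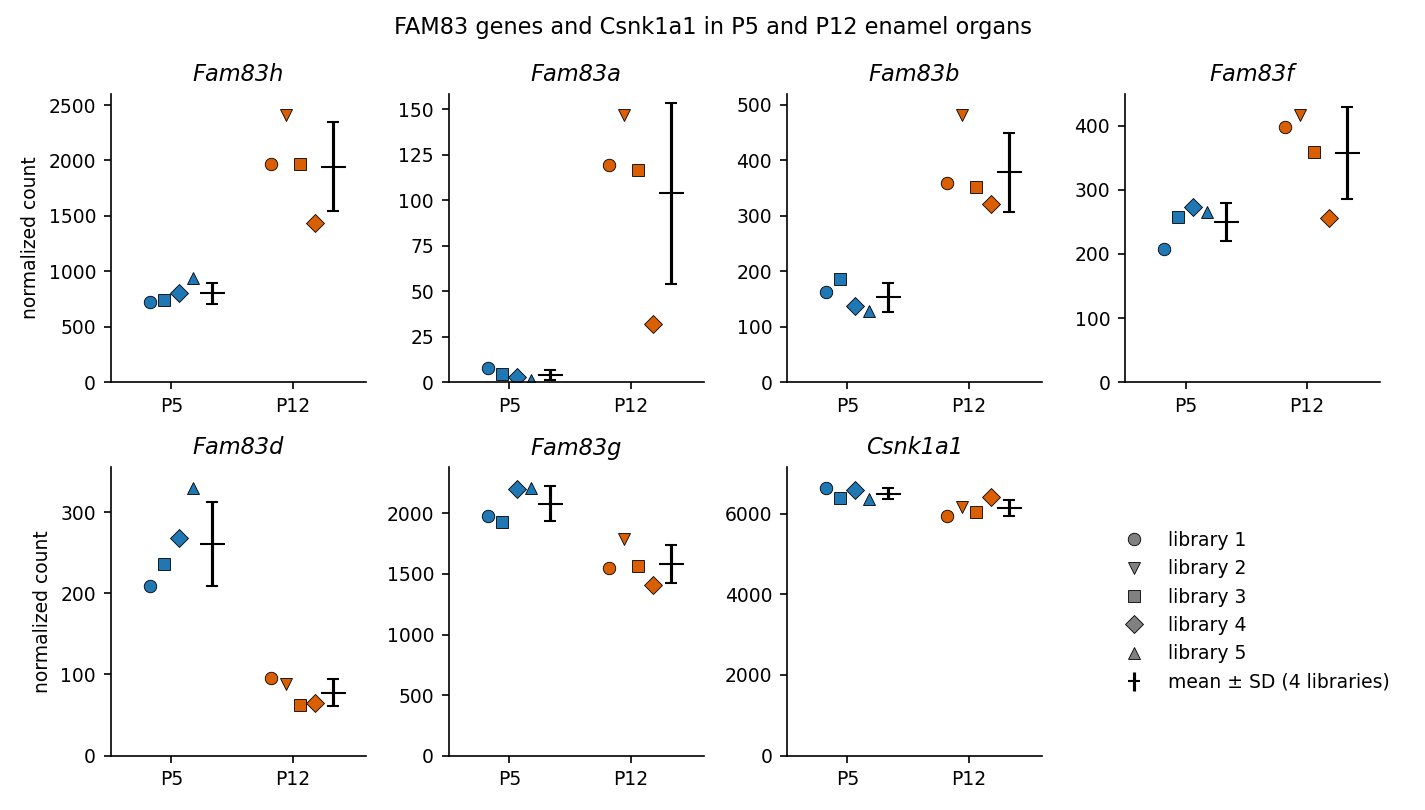
Normalized counts of the 7 genes (vertical axes, each starting at 0) in the 4 P5 libraries (blue) and the 4 P12 libraries (orange), with a symbol for each library number and the mean ± SD in black. Fam83h, Fam83a and Fam83b lie higher in every P12 library than in any P5 library, Fam83d and Fam83g lie lower, and Fam83f and Csnk1a1 overlap.

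Fam83h (ENSMUSG00000046761) occupies positions 76001093 to 76014336 of chromosome 15 (GRCm38, reverse strand), with up to 5 exons in a coding transcript and no exonic base shared with another gene (0.0%). P5 libraries 1, 3, 4 and 5 held 725, 737, 805 and 937 normalized counts of Fam83h, against 1969, 2411, 1967 and 1432 in P12 libraries 1, 2, 3 and 4. The lowest P12 library, library 4, was still above the highest P5 library, library 5. The mean rose from 801 ± 97.2 (SD, n = 4 pools) to 1945 ± 401 (SD, n = 4), a 2.43-fold rise. On the log2 scale this rise was 1.28 with a standard error of 0.14 (edgeR quasi-likelihood test, adjusted p = 1.65e-05), and it was 1.48 without the 2 libraries that stood apart. Over 18 alternative fits it lay between 1.16 and 1.66, and it passed the threshold in all of them.

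The table also holds 27 other genes in which mutations cause amelogenesis imperfecta, alone or within a syndrome, and all 27 were tested. Of these, 11 rose, 15 fell and 1 did not pass the test, where 28.8% of all genes rose and 28.4% fell. Their median log2 fold change was -0.52 against 0.01 over all genes tested. Wdr72, which acts in vesicle trafficking of maturation ameloblasts, rose most, by 3.98 (standard error 0.21) on the log2 scale. Enam, which encodes the secreted matrix protein enamelin, fell most, to a log2 fold change of -9.95 (standard error 0.47). Placed among these genes by log2 fold change, Fam83h ranked 9 of 28, next to Cnnm4, a metal transporter gene, at 1.30 and Stim1, the calcium sensor of the endoplasmic reticulum, at 1.26.

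Of 7 listed partners of FAM83H, 2 rose, 3 fell and 2 did not pass the test, where 28.8% of all genes rose and 28.4% fell. Their median log2 fold change was -0.10 against 0.01 over all genes tested. Krt14 and Krt5, the keratin pair of basal epithelium, rose by 2.22 (standard error 0.12) and 1.30 (standard error 0.09) on the log2 scale. Krt14 had 31982 to 34971 normalized counts in the P5 and 131212 to 178109 in the P12 libraries, and Krt5 rose from 53989 ± 1184 (SD, n = 4) to 132799 ± 7723 (SD, n = 4). Krt8, a keratin of simple epithelium, had 193, 157, 210 and 148 normalized counts in the P5 libraries. In the P12 libraries it had 19.8, 19.4, 20.4 and 42.2, lower in each than in any P5 library, and its log2 fold change was -2.81 with a standard error of 0.26 (edgeR, adjusted p = 3.86e-06). Its pairing partner Krt18 overlapped between the ages, at 59.9 ± 18.0 (SD, n = 4) and 66.9 ± 20.9 (SD, n = 4), and its log2 fold change was 0.17 (95% interval -0.46 to 0.80). Sec16a, which organizes exit sites of the endoplasmic reticulum, fell from 4541 ± 320 (SD, n = 4) to 2360 ± 38.7 (SD, n = 4). Of the adaptor genes, Nck2 fell, at -0.75 (standard error 0.08) on the log2 scale, and Nck1 was at -0.10 (95% interval -0.30 to 0.10).

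Among 11056 other protein-coding genes with a mean normalized count of at least 100, the 5 whose profile over the 8 libraries was most like that of Fam83h were Tnks1bp1, Serpine2, Pdgfb, Cers3 and Cdo1. The measure of likeness was the root mean square difference of log2 normalized counts, each centred on the gene's own mean, and it lay between 0.08 for Tnks1bp1 and 0.11 for Cdo1. Tnks1bp1, which encodes a tankyrase-binding protein, had normalized counts of 1145, 1167, 1268 and 1384 in the P5 group against 3500, 3692, 3247 and 2383 in the P12 group. As for Fam83h, P5 library 5 was the highest at P5 and P12 library 4 the lowest at P12, which is part of the likeness by which Tnks1bp1 was chosen. Of the paralogs, Fam83b came closest to the profile of Fam83h, with a difference of 0.26 and rank 298.

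Fam83a had the largest fold change of the 7 genes and the lowest counts. Fam83a (ENSMUSG00000051225) occupies positions 57985419 to 58011009 of chromosome 15 (forward strand) and shares no exonic base with another gene (0.0%). Before normalization, P5 libraries 1, 3, 4 and 5 held 6, 4, 2 and 1 reads, against 163, 174, 126 and 32 reads in P12 libraries 1, 2, 3 and 4. P5 libraries 4 and 5 were thus below the floor of 3 counts, and P12 library 4 was far below the others of its age, at 32.1 normalized counts against 117 to 147. On the log2 scale the rise was 4.71 with a standard error of 0.58 (edgeR quasi-likelihood test, adjusted p = 3.68e-05), or 26.1-fold with a 95% interval of 10.8 to 63.0. Because Fam83a passed the filter through the P12 libraries, where it was high, this p is given as a description. Without P5 library 5 and P12 library 4 it was 4.66.

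Fam83b (ENSMUSG00000032358) occupies positions 76490054 to 76567116 of chromosome 9 (reverse strand), with no exonic base shared (0.0%). Its normalized counts were 162, 186, 137 and 128 in the P5 group against 359, 482, 351 and 321 in the P12 group. The lowest P12 library, library 4, exceeded the highest P5 library, and library 2 was the highest at P12. The mean was 153 ± 25.9 (SD, n = 4) before and 378 ± 70.9 (SD, n = 4) after, and the log2 fold change of 1.30 had a standard error of 0.15 (edgeR, adjusted p = 2.84e-05), close in size to that of Fam83h.

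On the route from the EGF receptor to RAF kinases, on which FAM83A and FAM83B act, 10 genes were listed and tested. Of these, 3 rose, 4 fell and 3 did not pass the test, where 28.8% of all genes rose and 28.4% fell. Their median log2 fold change was -0.06, against 0.01 over all genes tested. Scaled by total count alone, 6 were higher and 1 lower, where 8885 of all 16440 genes were higher and 2330 lower. Egfr, the receptor gene itself, had 787 to 902 normalized counts in the P5 and 2031 to 2430 in the P12 libraries, and it rose by 1.35 (standard error 0.08) on the log2 scale. Grb2, the adaptor that binds the activated receptor, fell by the most, at -0.78 (standard error 0.07) on the log2 scale.

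Fam83f (ENSMUSG00000022408) occupies positions 80671847 to 80700425 of chromosome 15 (forward strand). An antisense gene with 0 to 31 counts in any library, A430088P11Rik, covers 22.9% of its exonic bases, so that reads of the 2 genes could be mixed there. The normalized counts of Fam83f were 207, 257, 273 and 265 in the P5 group against 397, 417, 360 and 256 in the P12 group. P12 libraries 1 to 3 were above every P5 library, and P12 library 4 lay within the P5 range. On the log2 scale Fam83f rose by 0.52 with a standard error of 0.15 (edgeR, adjusted p = 0.012), and by 0.64 with an adjusted p of 0.000245 by edgeR without P12 library 4. With the replicate number as a block over 6 libraries the adjusted p was 0.081, and for the same 6 libraries with no block it was 0.0558.

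Fam83c, whose exons share 9.04% of their bases with a gene of at most 1 count, was near the lower limit of detection at P5. Its normalized counts of 6.43, 19.0, 11.9 and 8.47 at P5 stood against 46.2, 42.2, 21.3 and 9.04 in the P12 group. The ages overlapped, because P12 library 4 lay within the P5 range. Its log2 fold change of 1.38, with a standard error of 0.51 (edgeR, adjusted p = 0.0369), had an adjusted p between 0.00335 and 0.273 over 17 alternatives, 8 of which were above the threshold. Fam83e had 17 reads in all P5 libraries and 10 in all P12 libraries together and was too low to be tested.

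**Figure D2:**
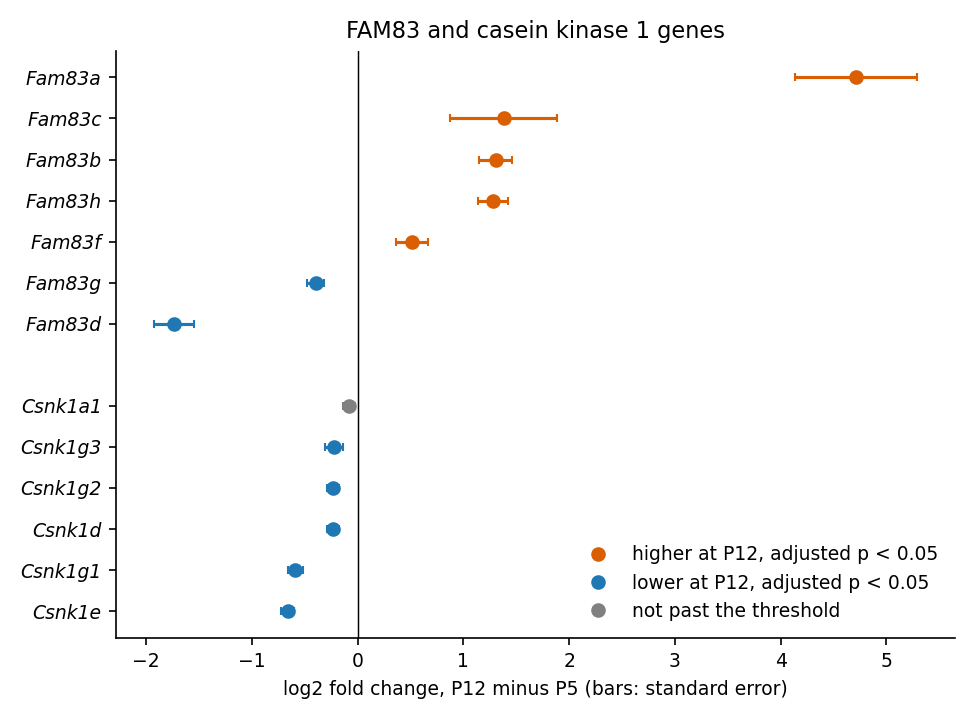
Log2 fold change between P5 and P12 (horizontal axis, values above 0 are higher at P12) with the standard error, for the 7 FAM83 genes tested and the 6 CK1 genes. Of the FAM83 genes 5 lie above 0 and 2 below, and the CK1 genes lie between -0.66 (Csnk1e) and -0.08 (Csnk1a1, grey), although total count scaling moves 4 of the 6 above 0.

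Fam83d fell the most of the 7 genes. Fam83d (ENSMUSG00000027654) occupies positions 158768093 to 158786637 of chromosome 2 (forward strand), with no exonic base shared (0.0%). Its normalized counts were 209.5, 236, 268 and 329 in the P5 group against 96.1, 87.8, 63.0 and 64.3 in the P12 group. The highest P12 library was far below the lowest P5 library, and P5 library 5 was the highest of all. The mean fell from 261 ± 51.5 (SD, n = 4) to 77.8 ± 16.7 (SD, n = 4), a 3.33-fold difference. The log2 fold change of -1.74 had a standard error of 0.19 (edgeR quasi-likelihood test, adjusted p = 1.26e-05). Over 18 alternative fits it lay between -1.86 and -1.36, and without the 2 libraries that stood apart it was -1.52.

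Genes of mitosis, the process in which FAM83D acts, went the other way. Of 14 listed mitosis genes, 14 were higher at P12 and none (0) was lower in the main test, under total count scaling and without the 2 libraries that stood apart. When single libraries were left out, 12 to 14 were called higher, by limma-voom 13, and over 6 libraries 12 with the replicate block and 12 without it, and none (0) was called lower in any of these fits. In the main test 28.8% of all genes were higher, and under total count scaling 8885 of all 16440 genes were. The median log2 fold change of the 14 genes was 1.12, against 0.01 over all genes tested. Their log2 fold changes ran from 0.66 for Ccnb2, a mitotic cyclin gene, to 1.44 for Cdc20, an activator of the anaphase-promoting complex. For 12 of the 14 every P12 library was above every P5 library, a pattern that 26.0% of all genes showed. Mki67, a marker of cycling cells, had 886, 761, 816 and 553 normalized counts in the P5 group against 1870, 1906, 1432 and 988 in the P12 group. Hmmr, whose product anchors FAM83D at the spindle, had a mean of 54.9 ± 11.6 (SD, n = 4) at P5 against 145 ± 30.1 (SD, n = 4) at P12 and rose by 1.41 on the log2 scale, with a standard error of 0.20 (edgeR, adjusted p = 0.000127). Dynll1, a dynein light chain gene of the same complex, rose by 0.41 (standard error 0.08) on the log2 scale. The related Dynll2 was at -0.15 (95% interval -0.32 to 0.03), with an adjusted p of 0.0252 by edgeR without P12 library 4. Under total count scaling Dynll2 was called higher instead, at 0.22 with an adjusted p of 0.0182 by edgeR.

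P5 library 5, in which Fam83d was highest, had the lowest summed count of the 14 mitosis genes at P5, at 2056 against 2564 to 2701 in the other P5 libraries. At P12 their sum was 3696 in library 4 and 4836 to 6366 in the others, while Fam83d was at 64.3 in library 4 and at 63.0 to 96.1 in the others. Markers of the maturation stage also stood apart in P5 library 5, where their normalized counts summed to 12880, whereas P5 libraries 1, 3 and 4 had sums of 36789 to 44228. Their part in the Fam83d level was not tested.

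**Figure D3:**
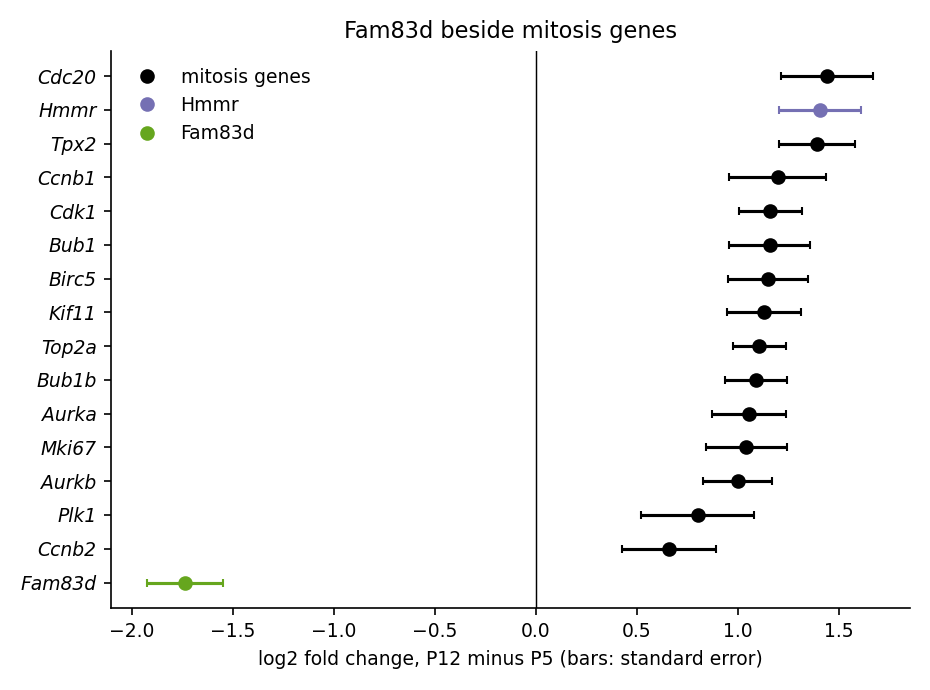
Log2 fold change between P5 and P12 (horizontal axis) with the standard error for Fam83d, Hmmr and 14 mitosis genes. Fam83d, at -1.74, is the gene below 0 in this plot, and the others lie between 0.66 and 1.44.

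The sequence before the start of Fam83d is shown beside that of Fam83b because both genes were called, in opposite directions. RefSeq promoter windows were matched by symbol for 4 of the 9 genes (Fam83b, Fam83d, Fam83e and Fam83g, and none for Fam83a, Fam83c, Fam83f, Fam83h and Csnk1a1). Each line gives the 250 bases before the RefSeq start in GRCm38.p6, on the gene's own strand, at chr2:158767849-158768098 on the forward strand for Fam83d and chr9:76567116-76567365 on the reverse strand for Fam83b. Capitals mark, in Fam83d, the CCAAT box (CCAAT) and the cell cycle homology region or CHR (TTTGAA, here on the other strand as TTCAAA), which are common in promoters of genes of the cell cycle, and in Fam83b the GC box (GGGCGG, here on the other strand as CCGCCC).
Fam83d: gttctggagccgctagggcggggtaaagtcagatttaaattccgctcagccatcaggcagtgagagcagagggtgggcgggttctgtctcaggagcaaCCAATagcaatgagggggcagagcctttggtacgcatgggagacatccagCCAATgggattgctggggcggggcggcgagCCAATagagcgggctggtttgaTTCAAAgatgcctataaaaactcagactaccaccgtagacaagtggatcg
Fam83b: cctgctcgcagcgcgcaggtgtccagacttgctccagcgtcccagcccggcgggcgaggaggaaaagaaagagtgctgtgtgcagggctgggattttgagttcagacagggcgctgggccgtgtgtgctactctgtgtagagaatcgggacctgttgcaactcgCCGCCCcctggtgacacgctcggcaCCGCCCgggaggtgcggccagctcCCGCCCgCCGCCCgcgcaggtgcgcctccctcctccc

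The Fam83d window holds 3 CCAAT boxes, at 152, 102 and 72 bases before the start, and 1 CHR, at 50 bases. Both strands were searched, and matches that share bases were counted separately. Of 32851 windows of the same length in the table, 2.79% hold at least 3 CCAAT boxes and 16.0% hold at least 1 CHR. The letters of neither motif are in the Fam83b, Fam83e or Fam83g window. A TATA box (TATAAA) stands 38 bases before the start of Fam83d, where 12.4% of all windows hold at least 1, and these letters are not in the Fam83b, Fam83e or Fam83g window. The Fam83b window holds 4 GC boxes, as does that of Fam83d (not in capitals), where 4.09% of all windows hold at least 4, and 2 of those in Fam83d share 1 base.

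Fam83g (ENSMUSG00000042377) occupies positions 61684091 to 61709951 of chromosome 11 (forward strand), and the antisense gene Slc5a10, with 17 to 28 counts, covers 5.9% of its exonic bases. The normalized counts of Fam83g were 1982, 1927, 2201 and 2206 in the P5 group against 1551, 1791, 1562 and 1412 in the P12 group. The ages did not overlap, although the gap between P12 library 2 and P5 library 3 was small beside the range within each age. The mean was 2079 ± 145 (SD, n = 4) at P5 against 1579 ± 157 (SD, n = 4) at P12, and the log2 fold change of -0.40 had a standard error of 0.08 (edgeR, adjusted p = 0.00143). Scaled by total count alone, which shifted the median of all genes to 0.38, it was -0.02 with an adjusted p of 0.849 by edgeR, which is -0.40 from that median.

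FAM83G binds SMAD1, a mediator of BMP signalling, and CD2AP, an adaptor of the actin cytoskeleton. Of the 5 genes listed for this route, 2 fell and 3 did not pass the test, where 28.4% of all genes fell. Their median log2 fold change was -0.30 against 0.01 over all genes tested. Smad5 and Smad9, which encode relatives of SMAD1, fell by 0.51 and 0.56 on the log2 scale (standard errors 0.07 and 0.11). Under total count scaling neither passed the threshold. In that scaling 2 of the 5 genes, Smad1 and Smad4, were called higher, where 8885 of all 16440 genes were. Smad1 was at 949 ± 147 (SD, n = 4) and 1037 ± 216 (SD, n = 4), and its log2 fold change was 0.13 (95% interval -0.20 to 0.45). Smad4, the shared partner of the receptor SMADs, had a log2 fold change of -0.18, and Cd2ap one of -0.30. Without P12 library 4, in which both were highest at P12, they were called lower, with an adjusted p of 0.0183 for Smad4 and 7.15e-05 for Cd2ap by edgeR. Without P5 library 5, Smad4 was also called lower, with an adjusted p of 0.0211 by edgeR. Its call reversed under total count scaling, where it was higher, at 0.19 with an adjusted p of 0.0323 by edgeR.

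Csnk1a1 (ENSMUSG00000024576), at positions 61555274 to 61590061 of chromosome 18 (forward strand), had the highest level of the 7 genes and the smallest change. Its normalized counts were 6624, 6374, 6587 and 6370 in the P5 group against 5931, 6168, 6038 and 6410 in the P12 group. P12 libraries 1 to 3 were below all P5 libraries, and library 4 lay within the P5 range. The log2 fold change was -0.08 (95% interval -0.21 to 0.05, adjusted p = 0.264 by edgeR). Under total count scaling it was 0.29 with an adjusted p of 0.000603 by edgeR, which is -0.09 from the overall median of that scaling, as in the main test.

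Of the other CK1 genes, 5 of 5 were lower at P12 under TMM scaling, where 28.4% of all genes were. By DESeq2 4 were lower, without single libraries 4 to 5, and over 6 libraries 2 with the replicate block and 4 with no block. The block took Csnk1d to an adjusted p of 0.0532 and Csnk1g2 to 0.0644, against 0.0237 and 0.0225 with no block (edgeR). Csnk1e, the epsilon isoform, had 1470 to 1660 normalized counts in the P5 and 964 to 985 in the P12 libraries, and its log2 fold change of -0.66 had a standard error of 0.06 (edgeR, adjusted p = 2.52e-06). Csnk1g1, a gamma isoform, had a mean of 883 ± 33.2 (SD, n = 4) at P5 against 587 ± 36.7 (SD, n = 4) at P12 and a log2 fold change of -0.59 (standard error 0.07). Csnk1d, Csnk1g2 and Csnk1g3 were lower by less, at -0.23, -0.23 and -0.23 on the log2 scale, and under total count scaling they turned to 0.14, 0.14 and 0.14. For Csnk1g3, whose ages overlapped, the call held in 7 of 18 alternatives, and the adjusted p was up to 0.117 over them. Csnk1e and Csnk1g1 were also called lower under total count scaling, at -0.29 and -0.22. The 6 CK1 genes together had a median log2 fold change of -0.23, against 0.01 over all genes tested.

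CK1 alpha phosphorylates beta-catenin within the destruction complex, which marks beta-catenin for degradation and so restrains Wnt signalling. Of 10 genes listed for this complex and its substrate, 8 fell, 1 rose and 1 did not pass the test. Among all genes tested 28.4% fell and 28.8% rose. The median log2 fold change of the 10 genes was -0.59 against 0.01 over all genes tested. Under total count scaling 4 were lower and 2 higher, where 2330 of all 16440 genes were lower and 8885 higher. Apc2, which encodes a scaffold of the complex, fell most, with a mean of 339 ± 109.8 (SD, n = 4) at P5 against 125 ± 29.6 (SD, n = 4) at P12 and a log2 fold change of -1.45 (standard error 0.23). Fbxw11, a ubiquitin ligase subunit gene, was the gene that rose, by 0.17 (standard error 0.06, adjusted p = 0.0363 by edgeR), and its adjusted p was between 0.0512 and 0.101 when single libraries other than P12 library 1 were left out.

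Compared per kilobase of gene length, the order of the 7 genes changed between the ages. At P5 the level was highest for Csnk1a1, at 618 ± 13.0 normalized counts per kilobase (SD, n = 4), followed by Fam83g at 312 ± 21.8, Fam83h at 173 ± 21, Fam83f at 83.7 ± 9.91, Fam83d at 65.3 ± 12.9, Fam83b at 39.5 ± 6.68 and Fam83a at 1.25 ± 0.902. At P12 Csnk1a1 was again the highest, at 584 ± 19.6, followed by Fam83h at 420 ± 86.6, Fam83g at 237 ± 23.6, Fam83f at 119 ± 24.0, Fam83b at 97.6 ± 18.3, Fam83a at 32.7 ± 15.7 and Fam83d at 19.5 ± 4.18. Fam83h thus moved above Fam83g, and Fam83d moved from the fifth to the last place. Neighbours whose ranges overlapped were Fam83f and Fam83d at P5, Fam83f and Fam83b at P12, and Fam83a and Fam83d at P12. The gene lengths are those of all annotated exons of a gene (10502 bases for Csnk1a1), and which of them were used in these libraries was not measured.

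Of the summed FAM83 level per kilobase, Fam83g went from 46.0% ± 1.61 (SD, n = 4) to 25.7% ± 2.60 (SD, n = 4) between P5 and P12, and Fam83h went from 25.4% ± 1.26 (SD, n = 4) to 44.8% ± 1.37 (SD, n = 4). The share of Fam83h ranged from 24.6% to 27.3% over the P5 libraries and from 43.0% to 46.0% over the P12 libraries. These shares do not depend on the scaling of the libraries, and in P12 library 4, where the Fam83h count was lowest, the share was 43.0%. The ratio of Fam83h to Fam83g per kilobase was 0.526, 0.550, 0.526 and 0.611 in the P5 group against 1.83, 1.94, 1.81 and 1.46 in the P12 group. Fam83f kept a similar part of the sum, at 12.3% ± 0.994 and 12.7% ± 0.855, and its ranges overlapped.

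The level of all 8 FAM83 genes together, per kilobase, went from 679 ± 53.4 (SD, n = 4) to 935 ± 169.5 (SD, n = 4), and the ages overlapped. Set against Csnk1a1 per kilobase, the sum was 0.989, 1.07, 1.12 and 1.22 in the P5 group against 1.70, 1.93, 1.62 and 1.18 in the P12 group. P12 library 4 lay within the P5 range. The ratio of Fam83h alone to Csnk1a1 ranged from 0.248 to 0.334 in the P5 group and from 0.507 to 0.887 in the P12 group, without overlap.

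**Figure D4:**
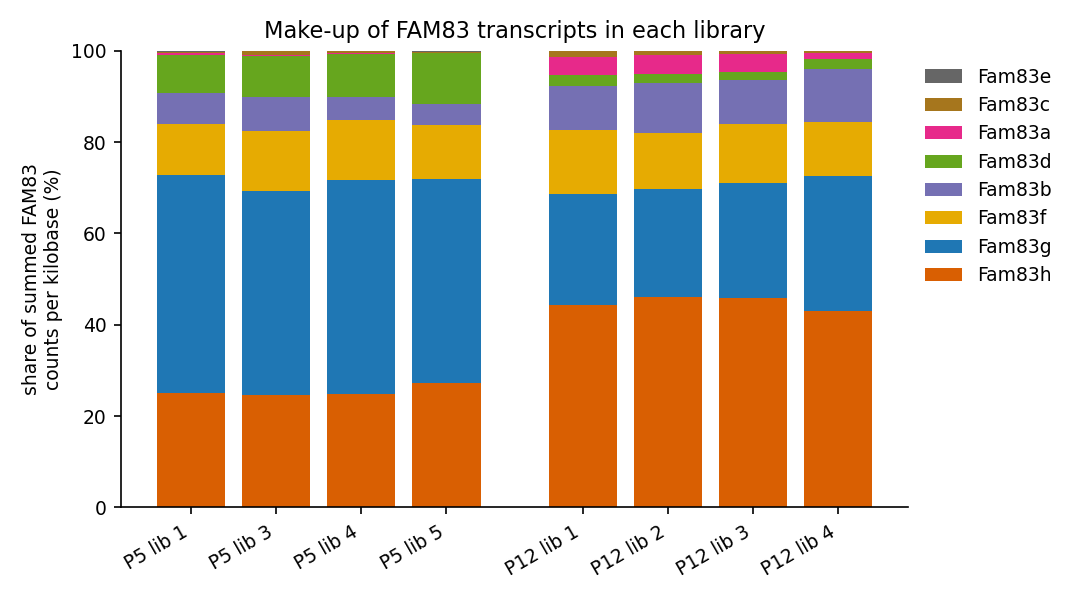
Share of each FAM83 gene in the summed FAM83 counts per kilobase (vertical axis, percent) in each library. Fam83h (orange, at the bottom) takes 24.6% to 27.3% at P5 and 43.0% to 46.0% at P12, and Fam83g (blue) and Fam83d (green) take smaller shares at P12.

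Of the 7 genes, 5 were lowest at P12 in library 4, where 34.3% of all genes tested were, and 5 were highest at P12 in library 2, where 23.9% were. The level in P12 library 4, divided by the mean of the other P12 libraries, was 0.252 for Fam83a, 0.654 for Fam83f, 0.677 for Fam83h, 0.781 for Fam83d, 0.808 for Fam83b, 0.863 for Fam83g and 1.06 for Csnk1a1. It was 0.247 for Fam83c. Markers of oral mucosa were also low in that library, by about as much as Fam83a and Fam83c and by more than the other 6 genes. Of 10 such markers 8 were tested and 8 were higher at P12, where 28.8% of all genes were higher. By limma-voom 6 of the 8 were called higher, where 4641 of all 16440 genes were. For Krt4 and Crct1 the ages overlapped. All 8 markers tested were lowest at P12 in library 4, and none of the 10 had 0 counts in all libraries. One of the 8, Krt24, had 6, 8, 1 and 3 reads in the P5 libraries. It passed the filter through its P12 libraries alone, so that its call is not read as support. The summed normalized count of the 10 markers was 907 to 1703 at P5, 44206 to 65884 in P12 libraries 1 to 3 and 13014 in P12 library 4. This last value had a ratio of 0.238 to the mean of those 3 libraries. The same ratio was 0.839 for the 4 epithelial markers, 0.846 for the 5 markers of mesenchyme, 1.15 for the 5 markers of the maturation stage and 1.99 for the 4 markers of the secretory stage. In P12 library 4 alone, Fam83a was above every P5 library, at 32.1 against 1.06 to 7.71 normalized counts. Fam83h was at 1432 there against 725 to 937 at P5. The summed oral mucosa markers were also above every P5 library there, at 13014 against 907 to 1703. The part of oral mucosa RNA in the levels and changes of the FAM83 genes was not tested.

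**Figure D5:**
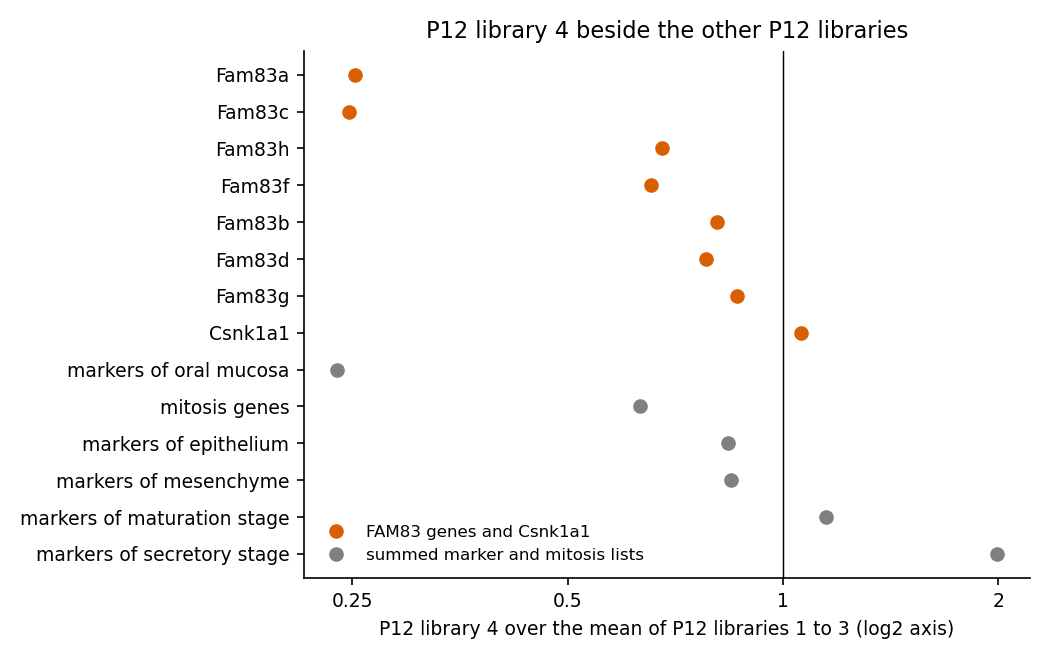
Normalized count in P12 library 4 divided by the mean of P12 libraries 1 to 3 (horizontal log2 axis) for the FAM83 genes and Csnk1a1 (orange) and for the summed counts of marker lists and mitosis genes (grey). Fam83a at 0.252, Fam83c at 0.247 and the oral mucosa markers at 0.238 lie farthest to the left, and the secretory markers at 1.99 farthest to the right.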

How the data were processed

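RNA-seq was performed by the authors on first molars of wt mice, 4 pools of 5 pups each at P5 and at P12. They deposited whole-number read counts per gene, without normalization, with gene lengths and coordinates. The submitters' processing notes list mm39 and CASAVA, whereas 53462 of 54532 genes have the same coordinates as in GENCODE M21 for GRCm38, the build used here. The aligner, the counting program and its use of strand are not given in the sources used here. Columns were matched to libraries by title.

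Genes were compared by edgeR 4.0.16 in R 4.3.3 (filterByExpr, TMM, glmQLFit and glmQLFTest) with age as the one factor. The p-values of all 16440 genes left by the filter were adjusted by the Benjamini-Hochberg method, and calls were made under 0.05. The standard error is the log2 fold change over the square root of F. Normalized counts are scaled to a mean effective library size of 19006280. Permutation tests used log2 normalized counts with a pseudocount of 1 over 70 splits. Named genes are all those of lists of up to 7 genes and of the FAM83 family. In longer lists they are the called genes with the largest rise and fall. Also named are the 5 genes with the profile closest to Fam83h. Mki67, Ccnb2, Cnnm4, Stim1, Cdh1, Twist1, Col1a2, Krt24, Krt4 and Crct1 were added after their values were seen. The members and lists were chosen with earlier results of these data known. DESeq2 1.42.0, which the study's methods name, limma-voom (limma 3.58.1), other scalings and filters, and fits without single libraries were alternatives. The tests were tried first on simulated data. Summaries used pandas 2.3.3 and scipy 1.17.1. Pools are separate animals, so that p-values measure the spread between pools. Molecular identifiers are not named in the sources used here, and the floor of 3 counts covers counting error only. The 95% intervals of fold changes come from the standard errors of the edgeR fit and so include the spread between pools.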

Additional observations from a re-analysis of the deposited data

Results flagged for a closer look

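Of 82 groups of 4 libraries (41 named genes at 2 ages), 6 held 1 library at a distance from the remaining 3, where about 1 in 20, or 4.1, are expected by chance. Of the FAM83 genes this held for Fam83e, with a normalized count of 0 in P12 library 2 against 2.78 to 3.01 in the other P12 libraries, all of them at or near the floor of 3 counts. P12 library 4 was the distant library for Krt8, at 42.2 against 19.4 to 20.4, and for Egfr, at 2430 against 2031 to 2068. At P5, Krt14 was at 31982 in library 3 against 34535 to 34971, Smad4 at 1495 in library 5 against 1756 to 1772, and Grb2 at 2625 in library 1 against 2322 to 2372.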

How the results depend on the processing

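The log2 fold changes of Fam83h, Fam83b and Fam83d kept their direction and stayed past the threshold in all 18 alternative fits. Fam83a did so in the 17 fits that tested it, and did not pass a minimum of 10 counts in every library. As it passed the main filter through its P12 libraries alone, its calls are not read as support. Without single libraries the changes of Fam83h, Fam83a, Fam83b and Fam83d lay between 1.16 and 1.40, 4.36 and 5.21, 1.17 and 1.41, and -1.86 and -1.61. In each of these fits 6 of the 7 genes, Fam83a among them, were called, against 8708 to 10030 of the 16629 to 16919 genes tested. Fam83f had a log2 fold change of 0.45 with the replicate number as a block over 6 libraries and of 0.46 for these libraries with no block, past the threshold in neither. Replicate numbers were not taken as pairs, since the deviations of same-numbered libraries correlated at 0.05, 0.01 and -0.04, and the labels name no shared litter or day. Against the fit of the same 6 libraries with no block, the block changed no call among the 7 genes.

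Scaling by total count moved the most results. Of all 16440 genes it called 8885 higher and 2330 lower, and of the 7 genes 5 higher and 1 lower. It gave -0.021 for Fam83g and turned the log2 fold change of Csnk1a1 to 0.29. Those of Csnk1d, Csnk1g2 and Csnk1g3 turned to 0.14, 0.14 and 0.14, of Nck1 to 0.27, of Dynll2 to 0.22, of Smad4 to 0.19 and of Cd2ap to 0.06. Because total count scaling shifts all genes by the same amount, these values stand at about the same distance from the median of all genes as before. Levels per kilobase became 150.1 for Fam83h, 72.5 for Fam83f, 271 for Fam83g and 536 for Csnk1a1 at P5, and 267 for Fam83g and 656 for Csnk1a1 at P12. Krt18 turned to -0.21 under the block, -0.17 without it and between -0.033 and 0.306 without single libraries. Smad1 lay between -0.016 and 0.205 without single libraries and was -0.11 without both P5 library 5 and P12 library 4, and for both genes the cause was not tested.

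Not divided by gene length, the shares of the FAM83 counts at P5 and P12 were 22.4% and 43.3% for Fam83h, 58.4% and 35.6% for Fam83g, 7.02% and 7.96% for Fam83f, 4.35% and 8.47% for Fam83b, and 7.26% at P5 for Fam83d. Depth limits Fam83a and Fam83c at P5 and Fam83e at both ages, and 4 pools at each age limit the exact tests to a p of 0.0286.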

Other observations

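Markers of other cell types in the molar also differed between the ages, where 28.8% of all genes tested were higher and 28.4% lower at P12. All 4 endothelial markers were higher at P12, with a summed normalized count of 2093 to 2496 at P5 and 4055 to 4393 at P12. Of 4 Schwann cell markers 3 were higher and none (0) lower, and their sum was 500 to 732 at P5 and 971 to 1392 at P12. Of 4 leukocyte markers 3 were tested and 3 were higher, with a sum of 639 to 900 and 1031 to 1382. Of 4 muscle markers 3 were tested and 3 were lower, with a sum of 454 to 813 and 222 to 300. Blood markers, of which 2 of 5 were lower, and markers of odontoblasts and bone, of which 1 of 4 was higher and 1 lower, overlapped in their sums. Of the 5 markers of mesenchyme 2 were higher, 2 lower and 1 not called. Col3a1, a fibrillar collagen gene, rose from 4414 ± 234.6 to 54909 ± 25880 normalized counts (SD, n = 4 each), and Twist1 rose 2.38-fold. Pdgfra fell from 4412 ± 293.6 to 2217 ± 192 (SD, n = 4 each), and Col1a2 was lower by less, at -0.36 on the log2 scale. The sum of the 5, which is mostly Col1a1 and Col1a2, overlapped at 874297 to 1057849 at P5 and 725879 to 970550 at P12. All 4 markers of the secretory stage were lower and all 5 of the maturation stage higher at P12.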
